A study of Homo sapiens with 66 samples.

Results

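Cytosolic and nuclear RNA of hnRNPC-targeted THP-1 cells were compared by total RNA sequencing. THP-1 is a human monocytic leukemia line, and the cells here came from 1 Cas9-transgenic WT clone grown by limiting dilution. Cells were nucleofected with a gRNA against HNRNPC together with a nontarget gRNA and harvested on day 4. RNA was extracted from the digitonin-soluble supernatant, called cytosolic, after lysis at 300 µg/ml digitonin. Libraries titled as nuclear are read here as RNA of the insoluble pellet. The study's methods describe the pelleting of nuclei but not how RNA was made from them. The comparison rests on 4 libraries, 2 per compartment from 2 independent experiments, out of 18 in the fractionation study and 66 in the series. The members were chosen by their titles, with no measured value. Total RNA of the same targeted cells (2 libraries) and total and cytosolic RNA of cells given only the nontarget gRNA, called CTRL cells (2 libraries each), served as reference. All of these cells carried the Cas9 transgene, and none of them received the ADAR gRNA. Targeted cells were a nucleofected pool, so cells with and without disrupted alleles were mixed. The series holds no nuclear library of CTRL cells. With 2 libraries per compartment, p-values of counts rest on a spread estimated over all 18 libraries of the fractionation study, and those of editing on 6 libraries.

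Digitonin opens the cholesterol-rich plasma membrane and lets soluble cytosol escape. Nuclei, mitochondria and the membrane-bound ER with its ribosomes largely stay in the pellet, so mRNAs translated at the ER can be found there too. HNRNPC is a nuclear protein that binds uridine tracts of nascent transcripts, among them the poly-U stretch of antisense Alu elements, and keeps these from being spliced in as exons. Inverted Alu pairs can fold into double-stranded RNA, in which ADAR deaminates adenosine to inosine, read as guanosine by the sequencer. Clusters of such sites were extended by 1000 bp on both sides and merged by the authors into editing cluster regions (ECRs), and each ECR was counted like a gene.

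The gRNA matched the genome (GRCh37) at 1 place followed by an NGG motif, chr14:21702173-21702195 on the plus strand. This is coding sequence in exon 3 of the canonical HNRNPC transcript, and the site is shown because it defines the cells (PAM in capitals).
HNRNPC target: ctcattaacatactgaacgaAGG
HNRNPC (ENSG00000092199.13, chr14:21677295-21737653, minus strand) was first checked in every library. Its level in total RNA was 433 and 493 CPM in targeted cells against 910 and 581 CPM in CTRL cells, where CPM is the gene count scaled to the library’s total of gene counts in the usual way. All targeted libraries lay below the CTRL libraries, with a log2 fold change of -0.69 in edgeR's quasi-likelihood test (Benjamini-Hochberg adjusted p = 0.0367). In cytosolic RNA, HNRNPC stood at 455 and 571 CPM in targeted and 1024 and 870 CPM in CTRL cells. The nuclear libraries of targeted cells held 297 and 332 CPM, below their cytosolic counterparts (log2 fold change of cytosolic over nuclear RNA 0.71 ± 0.18 (SE, n = 2 per compartment), adjusted p = 0.00194). ADAR, the editing enzyme, was measured at 1278 and 1239 CPM in cytosolic and 840 and 1066 CPM in nuclear RNA (0.40 ± 0.16, adjusted p = 0.0306).

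The 4 libraries held between 52597524 and 69765836 gene counts. Mitochondrially encoded RNA took 0.00719% to 0.0101% of the cytosolic, 0.430% to 0.605% of the nuclear and 0.307% to 0.433% of the total RNA libraries. Of the 10 monocytic markers checked, CD68 was at 0 in both cytosolic and at most 0.16 CPM in the nuclear libraries, MPO reached at most 5.89 CPM and CEBPA at most 1.43 CPM, whereas ITGB2, LYZ, PTPRC, CD33, CSF3R, ITGAM and SPI1 were all above 10 CPM in every library. The 7 markers of T cells, epithelium, fibroblasts and erythroid cells were at most 0.255 CPM in each library. One reference library stood apart, since the second CTRL total RNA library had 0.745% mitochondrial counts against 0.370% in the first.

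The compartments differed across a large part of the transcriptome. Of 13650 genes tested, 2116 (15.5%) were higher in cytosolic and 2046 (15%) were higher in nuclear RNA, taking a log2 difference of 1 or more with an adjusted p no higher than 0.05. Genes past both limits are called cytosolic or nuclear below, and fold changes are those of edgeR after TMM scaling. The median of all genes was 0.27 on the log2 scale, with quartiles of -0.41 and 0.78, so the tail toward the nuclear libraries reached further than that toward the cytosol. With DESeq2's scaling the median moved to 0.02 and the split to 1019 cytosolic and 2553 nuclear genes, so groups are best read relative to the median of all genes. Ribosomal protein genes, for example, had a median 0.72 above it here and 0.71 above it with DESeq2. A CPM is relative to the scaled total of its own library. A loss from one compartment therefore cannot be told apart from a gain in the rest of that library.

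**Figure D1:**
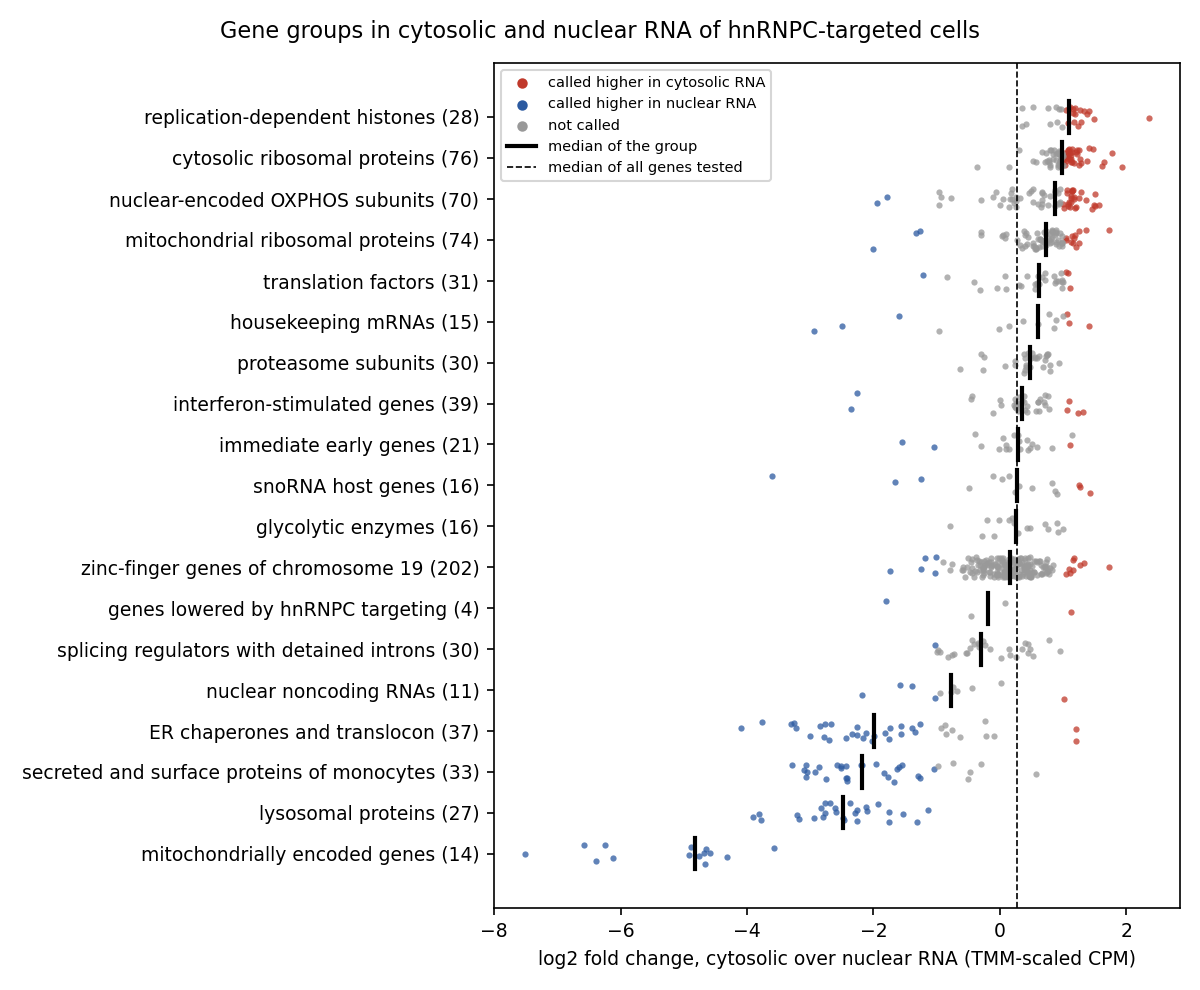
Log2 fold change of cytosolic over nuclear RNA for each tested gene of 19 gene groups (points, number of genes in brackets), with the median of each group (bar) and of all genes tested (dashed line). Mitochondrially encoded, lysosomal, secretory and ER genes extended to the left, with medians from -4.82 to -1.99, and histone and ribosomal protein genes had the highest medians, 1.10 and 0.98.

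The pellet was marked most strongly by RNA made inside mitochondria. All 14 mitochondrially encoded genes tested, of 15 listed, were called nuclear, with a median of -4.82. MT-CO1, a catalytic subunit of cytochrome c oxidase (ENSG00000198804.2), was at 31.2 and 24.0 CPM in the cytosolic and 2501 and 1672 CPM in the nuclear libraries, a log2 fold change of -6.24 ± 0.34 (adjusted p = 2.2e-10). The lowest nuclear value was far above the highest cytosolic one. MT-ND3, a complex I subunit, was at 0.767 and 0.944 against 192 and 122 CPM (-7.51), and MT-RNR1, the small ribosomal RNA, had the smallest change (-3.57). MT-ND1, which the study used as its mitochondrial reference and which the naming rule did not select, was at 2.93 and 1.37 against 61.6 and 45.2 CPM (-4.65). The mitochondrial tRNA genes MT-TC, MT-TN and MT-TP were at most 0.457 CPM in cytosolic RNA and at least 27.2 CPM in nuclear RNA. MTCO1P12, a nuclear copy of MT-CO1 that can take its reads, changed likewise (-6.03).

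Small nucleolar RNAs, which guide the modification of ribosomal RNA inside the nucleolus, were nuclear in 19 of 26 tested genes and cytosolic in none, with a median of -2.06. SNORA73B, which lies in SNHG3 at chr1:28835071-28835274, was at 11.4 and 16.2 CPM in cytosolic and 955 and 688 CPM in nuclear RNA (-5.90 ± 0.33, adjusted p = 3.6e-10). Its host transcript SNHG3 (chr1:28832492-28837404) overlaps it, so their reads cannot be fully separated, and stood at 57.2 and 71.9 against 890 and 673 CPM (-3.60). SCARNA5, a guide RNA of Cajal bodies, was at 0.662 and 0.624 against 52.9 and 24.1 CPM (-5.90 ± 0.54). Other snoRNA hosts were found on either side. Of 16 tested, SNHG3, SNHG12 and SNHG1 were nuclear and SNHG32, SNHG16 (1.26) and SNHG6 (1.42) were cytosolic, and the group median (0.27) equalled that of all genes.

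Long noncoding RNAs known for a nuclear site were less sharply parted than mitochondrial RNA. Of 11 tested, of 15 listed, 4 were nuclear and 1 was cytosolic, with a median of -0.78. NEAT1, the scaffold of paraspeckles, was at 110 and 106 CPM in cytosolic and 321 CPM in both nuclear libraries (-1.57 ± 0.28, adjusted p = 8.6e-05). MALAT1, a transcript of nuclear speckles that the study took as its nuclear reference and that is named here for that reason, was at 940 and 696 against 2265 and 2025 CPM (-1.39 ± 0.29, adjusted p = 0.000419). Both transcripts were clearly higher in the pellet, yet remained countable in the soluble RNA. KCNQ1OT1, the antisense RNA of the imprinted KCNQ1 locus, was lower in the cytosol (13.3 and 13.5 against 64.3 and 56.3 CPM, -2.17), and FTX was the fourth nuclear member. RN7SK, the RNA that holds the elongation factor P-TEFb, differed by -0.44 without passing the test (adjusted p = 0.0704). JPX, a regulator at the X-inactivation centre, was the cytosolic member, at 36.1 and 39.4 against 17.9 and 19.5 CPM (1.01), and fell to 0.76 with DESeq2. Of the small RNAs of the cytosol, 2 of 7 passed the filter. RN7SL2, an RNA of the signal recognition particle, was nuclear (6317 and 5671 against 16462 and 11149 CPM, -1.20), though without the first nuclear library its change was -0.91, and the vault RNA VTRNA1-3 was at -0.06 (adjusted p = 0.875).

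Messengers of proteins made at the ER were also counted mainly in the pellet. Of 37 genes for ER chaperones and the translocon, 27 were nuclear and 2 were cytosolic (median -1.99, which is 2.26 below the median of all genes). HSPA5, the ER chaperone BiP (ENSG00000044574.7), was at 51.5 and 39.7 CPM in cytosolic and 844 and 712 CPM in nuclear RNA (-4.09 ± 0.30, adjusted p = 5.7e-09). PDIA3, a disulfide isomerase, was at 47.4 and 54.3 against 782 and 592 CPM (-3.76), and CANX, the membrane-bound chaperone calnexin, at 536 and 541 against 2635 and 2033 CPM (-2.12). In all 3 genes the libraries of the compartments lay apart. The 2 cytosolic members were SEC61B (58.0 and 69.1 against 26.2 and 28.8 CPM, 1.21) and SEC61G (27.9 and 30.8 against 12.1 and 13.5 CPM, 1.20), which encode the small, tail-anchored subunits of the translocon. With DESeq2 they stood at 0.96 and 0.95, under the fold limit.

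Lysosomal proteins also enter the ER as they are made, and all 27 of their genes tested, of 28 listed, were nuclear (median -2.47). This count was 27 with any single library of the 4 left out. GRN, the growth factor precursor progranulin, was at 26.2 and 23.1 CPM in cytosolic and 382 and 355 CPM in nuclear RNA (-3.90 ± 0.12, adjusted p = 2.8e-12). PSAP, the precursor of the saposins, was at 28.9 and 34.4 against 470 and 413 CPM (-3.80). The smallest changes were those of SCARB2, a lysosomal membrane receptor (-1.30), and CTSZ, a cysteine protease (79.4 and 90.6 against 191 and 182 CPM, -1.13).

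Secreted and surface proteins of monocytes followed the same course, with 27 of 33 genes tested (of 40 listed) nuclear, none cytosolic and a median of -2.17. ITGB2, the beta chain of the leukocyte integrins, was at 39.96 and 32.1 against 366 and 338 CPM (-3.29 ± 0.14, adjusted p = 2.2e-11). TLR2, a receptor of bacterial lipoproteins, was at 11.3 and 14.4 against 126 and 93.0 CPM (-3.09), and SRGN, the proteoglycan of secretory granules, at 467 and 486 against 2817 and 2307 CPM (-2.43). The 6 genes not called included MPO, the granule peroxidase (-0.29, adjusted p = 0.109), and IFNAR1, a chain of the type I interferon receptor, which was the sole member above 0 (83.8 and 65.5 against 46.1 and 53.8 CPM, 0.58).

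Commonly used reference genes were split by compartment. Of 15, TUBA1B, YWHAZ and RPLP0 were cytosolic and GUSB, B2M and TFRC were nuclear, whereas DESeq2 called 1 cytosolic and 4 nuclear. B2M, the light chain of MHC class I, was at 190 and 183 CPM in cytosolic and 1200 and 908 CPM in nuclear RNA (-2.50), and GUSB, a lysosomal hydrolase that is also in the lysosomal list, at 14.99 and 16.6 against 131 and 111 CPM (-2.93). ACTB, the study's cytosolic reference, was at 10867 and 9921 against 5797 and 6360 CPM (0.77 ± 0.13, adjusted p = 5.7e-05), and GAPDH at 1332 and 1334 against 684 and 655 CPM (0.99). Both lay wholly above in the cytosol but under the fold limit of 1.

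**Figure D2:**
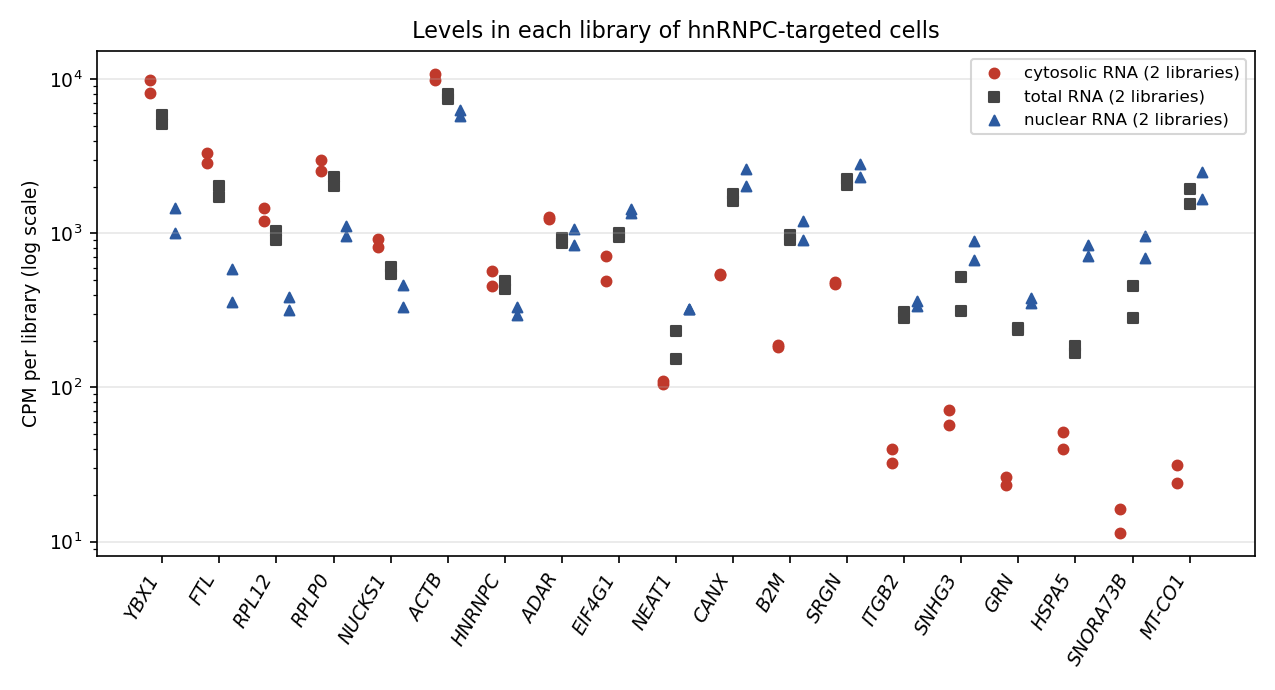
CPM on a log axis in each of the 2 cytosolic (circles), 2 total (squares) and 2 nuclear (triangles) RNA libraries of hnRNPC-targeted cells for 19 genes. From YBX1 to ADAR the cytosolic libraries lay above the nuclear ones, and from EIF4G1 to MT-CO1 below them, with total RNA between the compartments for most genes.

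Among genes with an average log2 CPM of at least 3 whose compartments did not overlap, the most cytosolic included YBX1, whose product packages cytosolic mRNA. YBX1 (ENSG00000065978.13, chr1:43148089-43169476) was at 8167 and 9849 CPM in cytosolic and 1007 and 1468 CPM in nuclear RNA, a log2 fold change of 2.86 ± 0.20 (adjusted p = 2.7e-09). Its processed pseudogenes YBX1P10, YBX1P1, YBX1P2 and YBX1P6 were among the 10 most cytosolic genes above that level (2.68 to 2.99), and their reads may stem from YBX1 itself. FTL, the light chain of ferritin, was at 2881 and 3323 against 361 and 587 CPM (2.71 ± 0.21), and its copy FTLP3 changed by 2.74. GPR160, an orphan receptor gene, was at 586 and 623 against 85.5 and 115 CPM (2.59), and NTAN1, an N-terminal amidase, at 38.4 and 39.2 against 6.15 and 7.10 CPM (2.55). TBC1D30, which encodes a GTPase-activating protein for Rab proteins, rested on 1 cytosolic library. It was at 41.0 and 6.30 CPM in cytosolic, 4.94 and 3.18 CPM in nuclear and 40.1 and 5.55 CPM in total RNA, and its change of 2.54 ± 0.85 (adjusted p = 0.013) became 0.63 without the first cytosolic library.

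Genes of the protein synthesis machinery leaned to the cytosol as a group. Of 76 ribosomal protein genes tested (of 77), 75 had a log2 fold change above 0, 35 were cytosolic and none nuclear. Their median of 0.98 sat almost on the fold limit, 0.72 above the median of all genes, so the count ranged from 23 to 54 as single libraries were left out and was 10 with DESeq2. RPL12 was at 1210 and 1453 CPM in cytosolic and 316 and 385 CPM in nuclear RNA (1.93 ± 0.17, adjusted p = 5.7e-08), and RPLP0, of the ribosomal stalk, at 2534 and 3001 against 968 and 1112 CPM (1.41). RPS10 (-0.36) and RPL17 (0.15) were at the bottom of the group, where fewer than 10 CPM were counted in each library for genes that overlap readthrough gene models. Of 31 translation factors tested, 3 were cytosolic (EIF2S2, EEF1B2 and EIF5A) and 1 was nuclear, but 1 to 8 were cytosolic as single libraries were left out and 0 with DESeq2. The median of the translation factors was 0.61, while their share of cytosolic calls was below the 15.5% of all genes. EEF1A1, the factor that brings tRNA to the ribosome, was at 13806 and 16156 against 6997 and 8023 CPM (1.00, just under the limit). EIF4G1, the scaffold of the cap-binding complex, was the nuclear member at 491 and 709 against 1450 and 1347 CPM (-1.22), and without the first cytosolic library at -0.98.

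Replication-dependent histone mRNAs, which end in a stem-loop and not in a poly(A) tail, had the highest group median. All 28 tested of 55 listed were above 0, 17 were cytosolic and none nuclear (median 1.10). H3C14 was at 26.8 and 19.7 CPM in cytosolic and 4.67 and 4.43 CPM in nuclear RNA (2.35 ± 0.18, adjusted p = 1.0e-08), and H1-5, a linker histone, at 626 and 648 against 339 and 329 CPM (0.93). With DESeq2, 7 were cytosolic.

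Mitochondrial proteins encoded in the nucleus behaved unlike the mitochondrial transcripts. Of 70 nuclear-encoded subunits of oxidative phosphorylation tested, 27 were cytosolic and 2 were nuclear (median 0.87). NDUFA5, of complex I, was at 113 and 135 against 37.96 and 45.9 CPM (1.57), and ATP5PF, of the ATP synthase, at 89.4 and 95.3 against 29.9 and 35.1 CPM (1.51). The nuclear members NDUFA13 (-1.94) and NDUFV2 (-1.79) had under 5 CPM in every library. Of 74 mitochondrial ribosomal proteins, 12 were cytosolic and 3 nuclear (median 0.74), led by MRPL42 at 113 and 123 against 32.5 and 38.7 CPM (1.73). These counts depended on the scaling. DESeq2 gave 8 cytosolic and 6 nuclear OXPHOS genes and 3 of each among mitochondrial ribosomal proteins. With single libraries left out, 17 to 33 OXPHOS genes and 9 to 17 mitochondrial ribosomal proteins were cytosolic.

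Soluble enzymes and complexes of the cytosol stayed near the middle. None of 30 proteasome subunits passed both limits (median 0.48, from -0.63 for PSMC1 to 0.94 for PSMB6), nor did any of 16 glycolytic enzymes (median 0.25). ENO1, the enolase, was at 1712 and 2078 against 1730.2 and 1603 CPM (0.19, adjusted p = 0.273). Of 202 zinc-finger genes on chromosome 19, 9 were cytosolic and 5 nuclear, with a median of 0.16, which DESeq2 turned to -0.09 with 3 cytosolic and 8 nuclear genes. ZNF91, a repressor of retroelements, was the most cytosolic at 369 and 327 against 95.5 and 114 CPM (1.73), and ZNF497, at under 4 CPM, the most nuclear (-1.73).

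Regulators of splicing with introns known to be detained in the nucleus had a group median below that of all genes, but few calls. Of 30 tested, OGT, the O-GlcNAc transferase, was called nuclear (104 and 120 against 251 and 205 CPM, -1.03) and none was cytosolic. The median was -0.30, which is 0.57 below that of all genes, and 12 of the 30 were above 0. With 1 of 30 called, the nuclear share was below the 15% of all genes. CLK4, a kinase of SR proteins, was at -0.99 and passed the limit with DESeq2 (-1.24), which called 6 of the group nuclear, and SRSF1, an SR protein, was at 0.95. Exon counts do not tell transcripts with a detained intron from spliced ones.

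Immediate early and interferon-stimulated genes were examined because sensing of double-stranded RNA induces interferon and its targets. Of 21 immediate early genes, EGR1 was cytosolic and FOSB and NR4A1 were nuclear. FOS, a subunit of AP-1, was at 288 and 89.3 CPM in cytosolic, 78.7 and 92.5 CPM in nuclear and 289 and 89.5 CPM in total RNA, so the compartments overlapped (1.14 ± 0.65, adjusted p = 0.128). EGR1 was at 167 and 64.0 against 44.4 and 63.1 CPM (1.10), and its change became 0.25 without the first cytosolic library. Of 39 interferon-stimulated genes, CMPK2, ISG15, EIF2AK2 and XAF1 were cytosolic and IFI6 and IRF9 nuclear (median 0.35). In both groups the shares called were below those of all genes (15.5% cytosolic and 15% nuclear). The median of the immediate early genes was 0.29, and both medians were close to the 0.27 of all genes. EIF2AK2, the double-stranded RNA-dependent kinase PKR, was at 450 and 297 against 122 and 194 CPM (1.24 ± 0.22), and IFI6, a membrane protein, at 6.45 and 4.75 against 28.4 and 28.8 CPM (-2.36 ± 0.36). With DESeq2, 2 interferon-stimulated genes were cytosolic. With single libraries left out, 1 to 5 were cytosolic, and EIF2AK2 fell to 0.91 without the first cytosolic and 0.94 without the first nuclear library.

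The study named 4 genes as lowered by hnRNPC targeting, chosen on cells of this series, and they were found on both sides. NUCKS1, a chromatin protein, was at 817 and 924 CPM in cytosolic and 335 and 463 CPM in nuclear RNA (1.13), and at 0.88 with DESeq2. MFSD1, a lysosomal transporter, was at 66.3 and 82.7 against 296 and 223 CPM (-1.80 ± 0.17, adjusted p = 8.4e-08). IARS2, the mitochondrial isoleucyl-tRNA synthetase, was at -0.45 and EIF3D, an initiation factor subunit, at 0.09 (adjusted p = 0.637).

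Transcript classes differed in where they were counted. Processed pseudogenes, which are intronless copies of mRNAs, were cytosolic in 334 of 801 (41.7%) and nuclear in 35. As for the YBX1 copies, their reads may stem from the parent genes, which was not tested. Of 816 long noncoding RNA genes, 81 were cytosolic and 138 nuclear (median 0.04), and of 11436 protein-coding genes 1622 and 1732 (median 0.26). When protein-coding genes were divided into 5 groups of nearly equal size by annotated exon length, the shortest (357 to 3193 bp) had 23.3% cytosolic genes and a median of 0.54, and the longest (9263 to 118976 bp) 9.05% and a median of 0.07. The share of nuclear genes went from 12.9% to 16.6%. These are descriptions over genes, which are not independent replicates.

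Total RNA was used to turn the enrichment into an estimated share. Here CPM on gene totals without TMM were used, and those of total RNA were written as a mixture of the compartments. A cytosolic part of 44.5% gave the smallest error over 4162 called genes. This part ranged from 35.5% to 52.0% over the 8 choices of 1 library per compartment. The mean absolute error was 0.24 on the log2 scale, and 3997 (96.0%) of the called genes had a total level between the compartments. Both values cover the genes used for the fit, whose compartments differ strongly by selection. They do not test the mixture over all genes. By this estimate the cytosol held 84.1% of YBX1 RNA (74.0% to 90.4%), 59.3% of GAPDH, 54.3% of HNRNPC, 19.7% of NEAT1 and 21.9% of MALAT1 RNA, 11.97% of SRGN, 4.13% of HSPA5 and 0.962% of MT-CO1 RNA. The median gene was at 46.8%. The ranges cover the choice of library only. Single genes can depart from the mixture. HSPA5 in total RNA, at 186 and 166 CPM, lay well below the level that the fitted mixture gives. Its share is therefore not a close estimate.

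ECRs were shifted toward the pellet compared with genes, and introns held 363 of the 534 nuclear ones. Of 2470 ECRs tested (2794 in the table), 180 (7.29%) were cytosolic and 534 (21.6%) nuclear, with a median of -0.12 against 0.27 for all genes. ECRs in introns (1287) were nuclear in 363 and cytosolic in 51 cases (median -0.35), and those in 3′ UTRs (545) nuclear in 49 and cytosolic in 69 (median 0.34). The 302 intergenic ECRs had 28 cytosolic and 55 nuclear members (median 0.03), and the 195 in noncoding exons 21 and 37 (median -0.08). The 3′ UTR was the class whose median lay above that of all genes. DESeq2's scaling gave 73 cytosolic and 686 nuclear ECRs. It turned the balance in 3′ UTRs to 30 cytosolic and 72 nuclear ECRs (median 0.09) and the intergenic median to -0.22, with 9 cytosolic and 78 nuclear members. Without the first nuclear library, 3′ UTRs had 40 cytosolic and 46 nuclear ECRs. Under either scaling the medians of intron and 3′ UTR ECRs stood at -0.23 and 0.46 relative to that of all ECRs.

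ECRs were then set against the exons of the gene they lie in. In introns, 893 of 1213 ECRs with a tested host lay below it. The median difference of ECR minus host over all 1213 was -0.22, and the hosts had a median of 0.15. In 3′ UTRs, 175 of 532 lay below and the median difference was 0.07. An ECR in a 3′ UTR shares reads with its host's exons, so these values are not independent of each other. The most nuclear intron ECRs were far from their hosts. An ECR in MBNL1, a splicing regulator (chr3:152094793-152097779), was at 1.48 and 2.12 CPM in cytosolic and 19.2 and 17.2 CPM in nuclear RNA (-3.33 ± 0.38), where the gene's exons were at 1.00. One in HELLS, a chromatin remodeler, was at -3.37 and its host at -0.26. Nuclear with its host was an ECR in the 3′ UTR of QPCTL, a Golgi glutaminyl cyclase (-3.45, host -3.43). The lowest value of all belonged to an intergenic ECR at chr8:43091768-43098489, with 9.18 and 20.4 against 673 and 508 CPM (-5.32 ± 0.39, adjusted p = 1.4e-09). The most cytosolic ECRs had values close to their hosts', led by those in the 3′ UTRs of DTD2, a tRNA proofreading gene (16.8 and 21.02 against 4.37 and 3.94 CPM, 2.19, host 2.19), and of the clock gene BMAL2 (2.03, host 2.07).

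**Figure D3:**
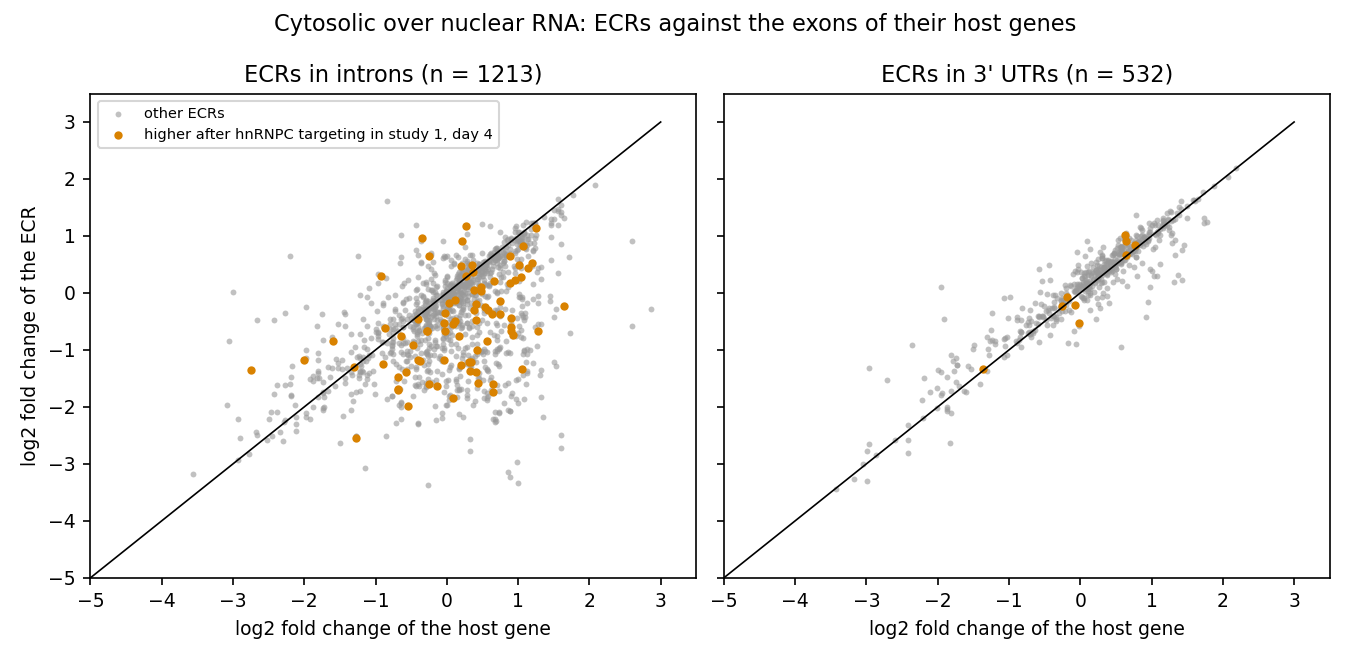
Log2 fold change of cytosolic over nuclear RNA of each ECR against that of its host gene's exons, for introns (left) and 3′ UTRs (right). The line marks equal values, and ECRs higher after hnRNPC targeting on day 4 of the separate first study are drawn in orange. In introns 893 of 1213 ECRs lay below the line, and in 3′ UTRs 175 of 532.

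ECRs that rise when HNRNPC is targeted were marked from the first study of the series, which holds no fractionated RNA. There, 142 of 2528 ECRs (5.62%) were higher in hnRNPC-targeted than in CTRL cells on day 4, and 130 tested ECRs of the fractionation study overlapped one of them. These were cytosolic in 6 and nuclear in 39 cases, with a median of -0.44, against 174 and 495 of the other 2340 (median -0.09). Of the 130, 109 had a fold change above that of MALAT1 and 12 above that of ACTB. Of the other 2340, these were 2029 and 319. Among introns, the 81 marked ECRs had 3 cytosolic and 25 nuclear members (median -0.54), and the 1206 others 48 and 338 (median -0.34). With a tested host, 65 of 78 marked intron ECRs lay below it. The median difference over all 78 was -0.70, against -0.20 for the others. The median estimated cytosolic share of all marked ECRs was 35.1%, compared with 40.6% for the rest. The first study's day 5 marked 116 ECRs, of which 5 were cytosolic and 38 nuclear (median -0.37).

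Longest runs of T on the transcript strand were searched in the reference sequence of marked ECRs, since uridine tracts are what HNRNPC binds. The 4 stretches below come from intron ECRs that the study follows and that were higher after targeting (30 bases of GRCh37 on the strand of the host, longest run of T in capitals).
BRD8, chr5:137508355-137508384, minus strand: TTTTTTTTTTTTTTTTTTTTTTTTTTTTTT
MIGA1, chr1:78257241-78257270, plus strand: taagTTTTTTTTTTTTTTTTTTTTTTTaaa
PSPH, chr7:56107463-56107492, minus strand: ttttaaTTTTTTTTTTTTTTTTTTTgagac
TMEM116, chr12:112440194-112440223, minus strand: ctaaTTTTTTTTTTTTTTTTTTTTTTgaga
The longest runs were 30, 23, 19 and 22 bases. A run of at least 9 T was present in 82.7% of 127 marked ECRs, with a median longest run of 16, and in 72.3% of all 2356 ECRs with a strand, with a median of 13. By compartment, such a run was found in 80.4% of the 51 cytosolic and 74.1% of the 363 nuclear intron ECRs. A run of T is a match of letters and not a measured binding site.

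The same 4 ECRs did not share a compartment. The BRD8 ECR (chr5:137507963-137512562, in an intron of a bromodomain gene) was at 7.27 and 7.18 CPM in cytosolic and 12.8 and 11.7 CPM in nuclear RNA. It was lower in the cytosol in both libraries (-0.76 ± 0.28, adjusted p = 0.0231, host -0.64), and its estimated cytosolic share was 30.1% (21.6% to 38.5%). The MIGA1 ECR (chr1:78254095-78257808), in a gene of mitochondrial fusion, was at 14.99 and 12.7 against 5.89 and 6.37 CPM. It was called cytosolic (1.17 ± 0.17, adjusted p = 6.8e-06) with a share of 62.3%, above its host at 0.27, and stood at 0.93 with DESeq2. The marked PSPH ECR (chr7:56107147-56110853), in the gene of phosphoserine phosphatase, was at 5.995 and 5.66 against 4.08 and 4.04 CPM (0.52, adjusted p = 0.0449, host 1.20). The marked TMEM116 ECR (chr12:112438202-112440256) was at 5.89 and 6.38 against 3.97 and 4.77 CPM (0.49, adjusted p = 0.0804). In total RNA these 4 ECRs were higher in targeted than in CTRL cells by 2.41, 1.35, 1.45 and 1.48 on the log2 scale.

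Other ECRs of genes that the study follows were also measured. A second ECR of PSPH (chr7:56077288-56080110), whose sites were intergenic, was at 16.3 and 18.6 against 5.88 and 8.17 CPM and was called cytosolic (1.31). A second one of TMEM116 (chr12:112371321-112374733), in an exon, was at 12.1 and 11.7 against 9.07 and 9.60 CPM (0.35). The MYB intron ECR, in a hematopoietic transcription factor gene, was at 104 and 96.2 against 56.5 and 60.1 CPM (0.78, host 1.10). The ECR in the 3′ UTR of DESI1, a desumoylating peptidase gene, was at 59.8 and 67.4 against 30.6 and 38.6 CPM (0.88, host 0.86), and those of BPNT1 (0.26) and NICN1 (-0.32) did not pass the test. An ECR overlapping ANKRD36C and LINC00342 was nuclear (-1.05). In PNPLA3, a lipase gene, 3 ECRs were at -0.45, -0.07 and 0.17, none past the test. NKRF had no ECR in the table.

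Whether targeting HNRNPC changed the cytosolic part could be tested only against total RNA, as the difference of cytosolic over total RNA between targeted and CTRL cells. No gene (0% of 13650 in either direction) and no ECR (0% of 2470) passed both limits in edgeR, while 417 genes and 103 ECRs had an unadjusted p below 0.05. DESeq2 and limma-voom also made 0 calls, with 474 and 306 genes and 112 and 96 ECRs below 0.05 unadjusted. For the BRD8 ECR this difference was -0.14 and for the MIGA1 ECR 0.51 (adjusted p = 0.982 and 0.944). The count rose most without the first CTRL total RNA library. That left the second, which stood apart in mitochondrial counts, as the only CTRL reference for total RNA. The median difference over genes was then -0.19, against -0.09 with all libraries and 0.005 without the second.

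Editing was measured at 50377 sites with at least 20 reads in each of the 4 libraries. Over all these sites, 9.09% and 8.78% of reads were edited in cytosolic and 7.80% and 8.59% in nuclear RNA, with 8.39% and 8.33% in total RNA. The cytosolic libraries were higher by 0.739 percentage points without overlap (exact two-sided permutation test, p = 0.333, the smallest that 2 against 2 libraries allow). At a minimum of 50 reads the libraries overlapped, and the difference was 0.344 points.

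Of the 6 classes of sites, introns had the largest difference. Over 4038 intron sites edited at 5% or more in both total RNA libraries, 19.9% and 19.98% of reads were edited in cytosolic RNA, 15.8% and 17.7% in nuclear RNA and 18.5% and 18.9% in total RNA. At 7979 sites in 3′ UTRs the levels were 18.7% and 18.6% against 17.9% and 18.96%, and the compartments overlapped. Intergenic sites were at 18.9% and 18.97% against 16.5% and 18.3%, without overlap. The second nuclear library was above the first in every class drawn.

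**Figure D4:**
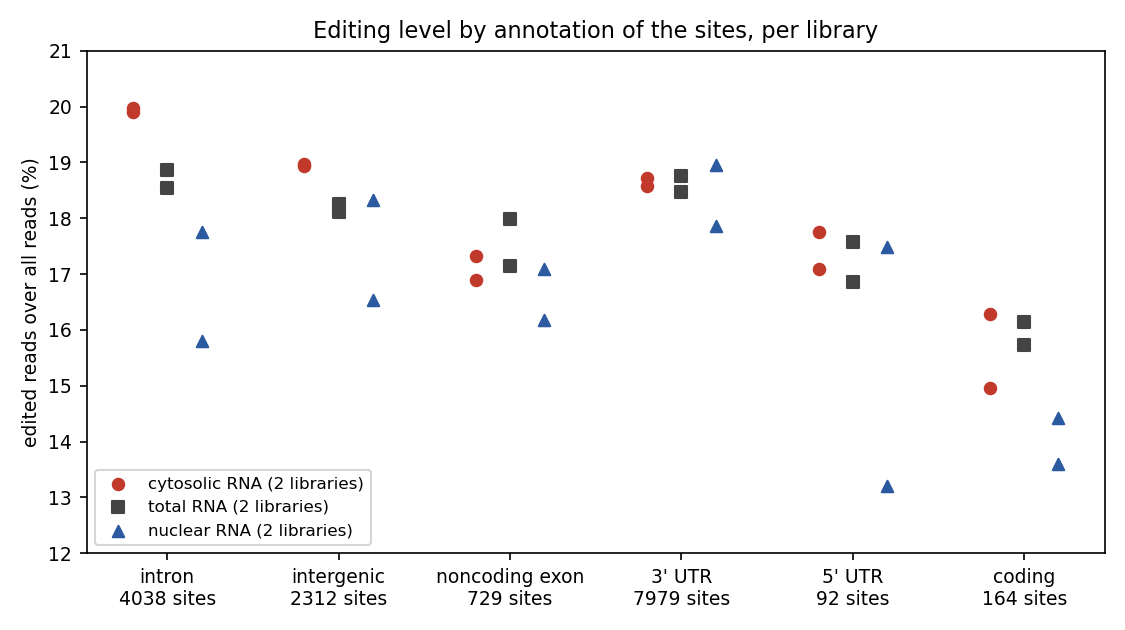
Percent of edited reads in each library of hnRNPC-targeted cells over sites edited at 5% or more in both total RNA libraries, by annotation of the site (the axis starts at 12%). In introns the cytosolic libraries, at 19.9% and 19.98%, lay above the nuclear ones, at 15.8% and 17.7%, and in 3′ UTRs the compartments overlapped.

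When reads were summed over the sites of each ECR, 277 of 2178 ECRs (12.7%) were more edited in cytosolic and 2 (0.0918%) in nuclear RNA, at an adjusted p of at most 0.05 and a difference of at least 5 points. Introns made up 241 of the 277. Their 1120 ECRs had a median of 9.65% in cytosolic and 6.08% in nuclear RNA, and 1005 were higher in the cytosol. In 3′ UTRs, 5 of 538 ECRs were called, with medians of 8.80% and 8.15%. ECRs that were themselves nuclear in abundance were called more edited in cytosolic RNA in 74 of 405 cases, and cytosolic ECRs in 10 of 159. The ECRs marked by hnRNPC targeting had 4 more and 1 less edited in cytosolic RNA of 110 (median difference 1.48 points, 1.73 over all). The count in introns was 109 to 253 with single libraries left out, lowest without the first cytosolic library.

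The ECRs of MFSD2A, LRPPRC and CBX3 were chosen after their values were seen and had large differences. Over all intron ECRs tested, the median difference was 3.34 points. The ECR in an intron of MFSD2A, a lysolipid transporter (chr1:40424409-40426557), was edited at 28.6% and 32.1% in cytosolic and 11.2% and 14.7% in nuclear RNA (adjusted p = 0.000313), although its RNA was mostly in the pellet (-2.09). One in LRPPRC, a mitochondrial RNA-binding protein (chr2:44168995-44171032), was at 25.3% and 26.7% against 14.02% and 10.9%. In CBX3, a heterochromatin protein, the values were 20% and 13.9% against 4.67% and 0.94%. The cytosolic libraries were above the nuclear ones in each of these ECRs. The 2 ECRs with the opposite order lay in an exon of ZNF429 (5.14% and 2.27% against 10.1% and 10.2%) and between genes at chr15:32849617-32851874 (7.06% and 6.39% against 14.2% and 10.5%).

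**Figure D5:**
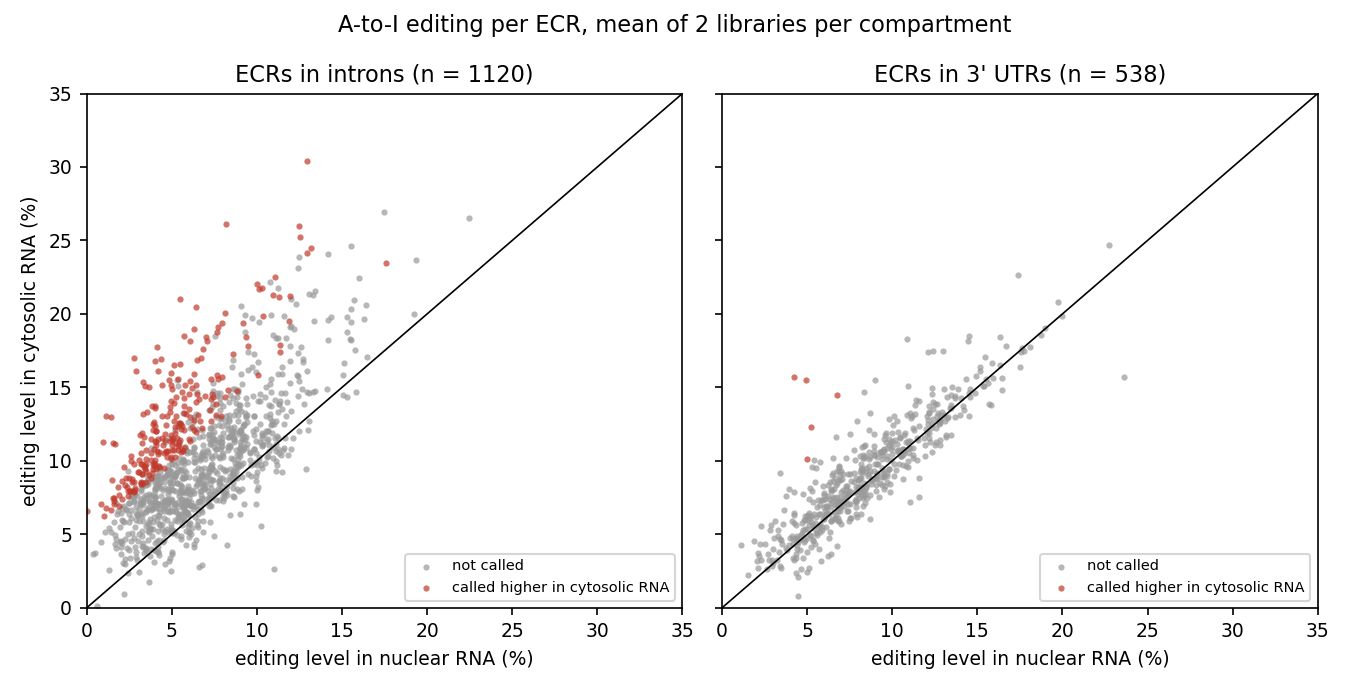
Editing level in cytosolic against nuclear RNA of each ECR (mean of 2 libraries each), in introns (left) and 3′ UTRs (right), with called ECRs in red and the line of equal values. Most intron ECRs (1005 of 1120) lay above the line, and those of 3′ UTRs were spread along it.

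At single sites, 42 (0.0834%) were more and none (0%) less edited in cytosolic RNA in edgeR, with 2079 at an unadjusted p below 0.05, whereas limma on log2 odds called 0, with 4456 below 0.05. Called sites were in introns (29), noncoding exons (10) and 5′ UTRs (3), and none of the 22654 tested in 3′ UTRs was called. They clustered in few genes, with 10 in MFSD2A, 6 in CAP1, 5 in GFI1 and 4 in PABPC1, and 20 lay between 40 and 44 Mb of chromosome 1, where 3125 sites were tested. Neighbouring sites share reads. The windows below show the surroundings of called sites with large differences, on the strand of the host (GRCh37), with the edited adenosine in capitals.
MFSD2A intron, chr1:40425434-40425463: ataagttgatactaAaataccaagcagtgt
MATR3 exon, chr5:138620215-138620244: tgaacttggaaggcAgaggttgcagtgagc
The MFSD2A site (chr1, 40425448), chosen after its value was seen because its difference was the largest, was edited at 68.8% and 71.0% in cytosolic and 19.6% and 30.1% in nuclear RNA, with at least 31 reads in each library. The site in MATR3, a nuclear matrix protein (chr5, 138620229), was at 41.0% and 36.1% against 11.9% and 14.1% (adjusted p = 0.0315).

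In the unnamed gene ENSG00000253821, the site at chr8, 58406888, was at 84.3% and 82.2% against 50% and 51.9% (adjusted p = 1.7e-06). A G followed the edited base at 25 of the 42 called sites (59.5%) and at 37.97% of 48969 tested sites, and a G preceded it at 3 of 42 and 11.5%.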

How the data were processed

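Per the labels and the methods of the study, total RNA libraries (TruSeq Stranded, Ribo-Zero Gold, 150-bp paired reads) were aligned by the authors to GRCh37 with STAR 2.5.4a, and uniquely mapped reads were counted with featureCounts on GENCODE 19 exons and on ECRs. The deposited values are raw counts per gene and per ECR, and edited and total read counts per site from SAILOR. Unique mapping can lose or shift reads of near-identical copies.

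Counts were tested in edgeR 4.0.16 (R 4.3.3) with glmQLFit on all 18 libraries of the fractionation study, library sizes being gene totals times TMM factors. Genes with an average log2 CPM of at least 0.5 and ECRs of at least 4.5 were kept. Edited and unedited counts were tested in edgeR on the 6 libraries of hnRNPC-targeted cells, with at least 20 reads per site, or 100 reads and 3 sites per ECR, in each of the 4 libraries. All p-values were Benjamini-Hochberg adjusted over everything tested. DESeq2 1.42.0, limma 3.58.1, other scalings, filters and left-out libraries were alternatives. Scripts were tested on simulated data. Annotation came from GENCODE 44 lifted to GRCh37 (55538 of 57820 gene IDs matched). Sites took the first fitting class of coding, 3′ UTR, 5′ UTR, exon, intron and intergenic, and an ECR the most common class of its sites. Printed CPM are on gene totals times TMM factors. Only the estimated cytosolic shares rest on gene totals without TMM.

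Genes were named by rule: HNRNPC and ADAR, of each list the member with the highest level, the 2 most cytosolic and 2 most nuclear, and the 10 called genes with the largest change each way among those with an average log2 CPM of at least 3 and no overlap between compartments. For ECRs, those of genes the study follows and the 5 largest changes each way were named, and for sites the 5 largest differences with at least 50 reads. ECRs named for their editing, and genes beyond the rule, were chosen after their values were seen. The members and lists were chosen with earlier results of these data known. A few items that the rules select are not reported here.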

Additional observations from a re-analysis of the deposited data

How the results depend on the processing

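Precision was limited by 2 libraries per compartment and, for editing, by sites with as few as 20 reads. The cytosolic count of genes fell to 1019 with DESeq2, and without a filter 4628 genes were nuclear. For ECRs, 73 were cytosolic with DESeq2. Leaving out 1 of the 4 libraries gave 1532 to 2674 cytosolic and 1861 to 2241 nuclear genes and 118 to 252 cytosolic and 469 to 599 nuclear ECRs, lowest without the first nuclear library. Sites called more edited in the cytosol were 13 at 2.5 times the read minimum, 0 with limma, 148 (with 6 in the other direction) among sites edited at 5% or more in total RNA, an alternative added after seeing the data, and 6 to 28 without 1 library (0 to 3 in the other direction). For ECR editing, 127 to 301 were higher and 1 to 4 lower without 1 library, and those lower were 4 in the added set of sites, 0 with limma and 4 under the replicate block. The test of targeted against CTRL cells made 97 higher and 12 lower calls without a filter, and 0 to 154 higher and 0 to 11 lower calls for genes and 0 to 23 higher for ECRs without 1 library. The estimated cytosolic part was 35.5% to 52.0%. The cause of these changes was not tested.

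Libraries with the same replicate number deviated in opposite directions between the compartments (correlation -0.21), while over all 36 pairs of groups the median correlation was 0.153, with 22 above 0.1. A pairing by number was therefore not established, and the fits had no block. The replicate block gave 2119 cytosolic and 2054 nuclear genes, 182 and 535 ECRs, and 32 sites. With the crossed pairing, added after seeing the data, 2124 and 2053 genes and 180 and 531 ECRs were called.

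Group medians that changed sign with the scaling were those of intergenic ECRs (-0.22 to 0.03) and of zinc-finger genes of chromosome 19 (-0.09 to 0.16). Of the named genes and ECRs, those that changed sign were near 0 and not called. With DESeq2 they were HOTAIRM1 (-0.233), RPL17 (-0.107), EIF3D (-0.168), ENO1 (-0.0685), MCL1 (-0.154), ATP5F1A (-0.00154) and a PNPLA3 ECR (-0.0655). Without a normalization factor they were HOTAIRM1 (-0.127), EIF3D (-0.0531) and MCL1 (-0.0445), and HOTAIRM1 was at -0.0458 with RLE factors and -0.0323 in the 4 libraries alone. Another PNPLA3 ECR was at 0.0617 with ECR totals. With 1 library left out, values crossed 0 for HOTAIRM1 (-0.285 to 0.342), RPL17 (-0.150 to 0.391), EIF3D (-0.0984 to 0.2502), MCL1 (-0.169 to 0.325), VTRNA1-3 (-0.298 to 0.187), H2AC25 (-0.260 to 0.789) and the same PNPLA3 ECRs (-0.112 to 0.415 and -0.386 to 0.185).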

Other observations

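For some genes, total RNA did not lie between the compartments of the same cells. SON, a scaffold of nuclear speckles, was at 237 and 235 CPM in total RNA of targeted cells but at 685 and 593 CPM in cytosolic and 990 and 1118 CPM in nuclear RNA. Its total RNA in CTRL cells was 242 CPM in the first and 771 CPM in the second library. PABPC1, the poly(A)-binding protein, was at 659 and 608 CPM in total, 1748 and 1263 CPM in cytosolic and 898 and 1502 CPM in nuclear RNA, and at 911 and 1772 CPM in total RNA of CTRL cells. For both genes the second CTRL total library was the higher one, and it was also the one with more mitochondrial counts. HSPA5 lay between the compartments in total RNA (186 and 166 CPM), though well below the fitted mixture. It was at 188 and 446 CPM in the CTRL libraries. These genes were chosen after their values were seen. Of the 4162 called genes, 3997 (96.0%) lay between the compartments, but SON and PABPC1 were not called.

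FOS and TBC1D30 differed between replicate numbers in cytosolic and total RNA. FOS was at 288 CPM in cytosolic and 289 CPM in total RNA of the first replicate number and at 89.3 and 89.5 CPM in the second, while nuclear RNA was at 78.7 and 92.5 CPM. TBC1D30 was at 103 and 110 CPM in cytosolic RNA of CTRL cells and at 41.0 and 6.30 CPM in targeted cells.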
